A study of Mus musculus with 12 samples.

Results

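The 10 genes described here encode proteins that store iron, carry it across membranes or through body fluids, or sense how much of it a cell holds. They were chosen by name: the members were the rows of the deposited table whose symbol was Fth1, Ftl1, Ncoa4, Tfrc, Trf, Slc11a2, Slc40a1, Cp, Aco1 or Ireb2, and all 10 were found among its 54833 genes. All 10 also passed the filter on low counts, which left 21495 genes to test. RNA was taken from the ipsilateral caudate putamen, beside the hematoma after ICH and at the matching place in shams, in 4 groups of 3 samples, from male WT mice of the C57BL/6 strain. The young ICH group (8 to 10 weeks old) and the aged ICH group (20 to 22 months old) had an intracerebral hemorrhage (ICH) induced with type IV collagenase, an enzyme that breaks down the basement membrane of small vessels. The young sham and aged sham groups, of the same ages, received saline, and tissue from every group was taken at 24 h. Each sample was a pool of tissue from 2 or 3 mice, so every P-value here measures the spread between pools. The total count per sample ran from 28410896 to 37785160.

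Iron released from the heme of spilled red blood cells can drive damaging redox reactions, and cells handle it by storing, exporting or buffering it. Ferritin, a shell of heavy (H) and light (L) chains, holds iron in an inert form. Transferrin carries iron in plasma and cerebrospinal fluid, the transferrin receptor takes it into cells, and ferroportin lets it out. A pair of iron regulatory proteins adjusts many of these transcripts by binding iron-responsive elements (IREs), short stem-loops in their untranslated regions (UTRs).

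The libraries of a group were not alike in the tissue they held markers of. Markers of striatal neurons were present in every sample: all 10 listed genes had a count in all 12 samples. Their summed FPKM (fragments per kilobase of transcript and mapped depth) was 667, 412 and 379 in young sham, 304, 116 and 446 in young ICH, 490.4, 653 and 348 in aged sham and 99.7, 525 and 228 in aged ICH, with Penk the most abundant. Young ICH replicate 2 and aged ICH replicate 1 were lowest, and the groups overlapped. The 8 markers of choroid plexus, the epithelium that makes cerebrospinal fluid, summed to 348, 217 and 34.7 in young sham, 34.2, 6.63 and 3212 in young ICH, 43.2, 30.1 and 59.6 in aged sham and 1244, 1591 and 27.5 in aged ICH, with Ttr the most abundant, and none was at 0 in any sample. Young ICH replicate 3 and aged ICH replicates 1 and 2 stood above the other 9 libraries, so calls of members in the ICH groups, and the counts of each list, are also given without these 3, a choice made after the data were seen. That leaves 1 aged ICH sample, which is assumed to vary like the other groups.

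By FPKM, which allows genes to be compared, Fth1 was the most abundant member in all 12 samples, at 1338 to 2721, and by its mean over the samples the 11th most abundant of all genes. Ftl1 came next in all 12 samples, at 46.3 to 134, and Tfrc was above Slc11a2 in all 12. The next members lay close together and did not keep a fixed order. Means over the 12 samples were 9.61 ± 0.753 FPKM for Slc11a2, 9.27 ± 0.299 for Ireb2, 8.77 ± 3.97 for Trf, 7.57 ± 1.11 for Aco1, 6.41 ± 3.03 for Cp and 4.75 ± 0.362 for Ncoa4 (SD, n = 12). Each of these was above the next in only 7, 7, 8, 9 and 7 of 12 samples, in that order. These samples mix sham and ICH, and for some pairs the order differed between them. Mean Trf was below mean Ireb2 in young sham (4.75 against 9.56 FPKM) and aged sham (6.66 against 9.30). It was above mean Ireb2 in young ICH (11.6 against 9.09) and aged ICH (12.1 against 9.12). Mean Cp was likewise below mean Ncoa4 in both sham groups and above it in both ICH groups. Slc40a1 was lowest in all 12, at 0.884 to 1.20 FPKM. The levels of Ftl1, Trf, Ncoa4 and Cp are uncertain, because reads shared with near-identical or overlapping genes may have been lost or split, as described with each.

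After ICH, the ferritin chains and ceruloplasmin rose at both ages, and transferrin rose and its receptor fell in the young mice. In young ICH compared with young sham, 6 of the 10 members had an adjusted P under 0.05 (edgeR's quasi-likelihood test, Benjamini-Hochberg adjustment over all 21495 genes), 4 higher and 2 lower; 19.1% of all genes tested did (9.89% higher, 9.23% lower). In aged ICH compared with aged sham, 4 of 10 passed, 3 higher and 1 lower, against 13.2% of all genes (7.00% higher, 6.15% lower). The median log2FC of the 10 was 0.15 in the young and 0.18 in the aged comparison, beside 0.022 and 0.0018 over all genes tested. By the DEG criterion of the study, a fold change (FC) above 1.5 or below 0.67 at an unadjusted P under 0.05, applied here to edgeR's P-values and not to those of DESeq2, Ftl1, Trf and Cp passed at both ages, 3 of 10 each time, against 12.2% and 10.1% of all genes. In 8 of 10 members the 3 ICH samples lay all above or all below the 3 shams of their age, by normalized count, in the young and again in the aged mice; 35.0% and 35.1% of all genes did so. Without the 3 libraries rich in Ttr, 3 members passed in the young comparison (Ftl1 and Cp higher, Tfrc lower) and 1 in the aged (Ftl1); of all genes 9.63% and 1.89% passed then. In this whole tissue, fewer cells of a type and less RNA per cell cannot be told apart.

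**Figure D1:**
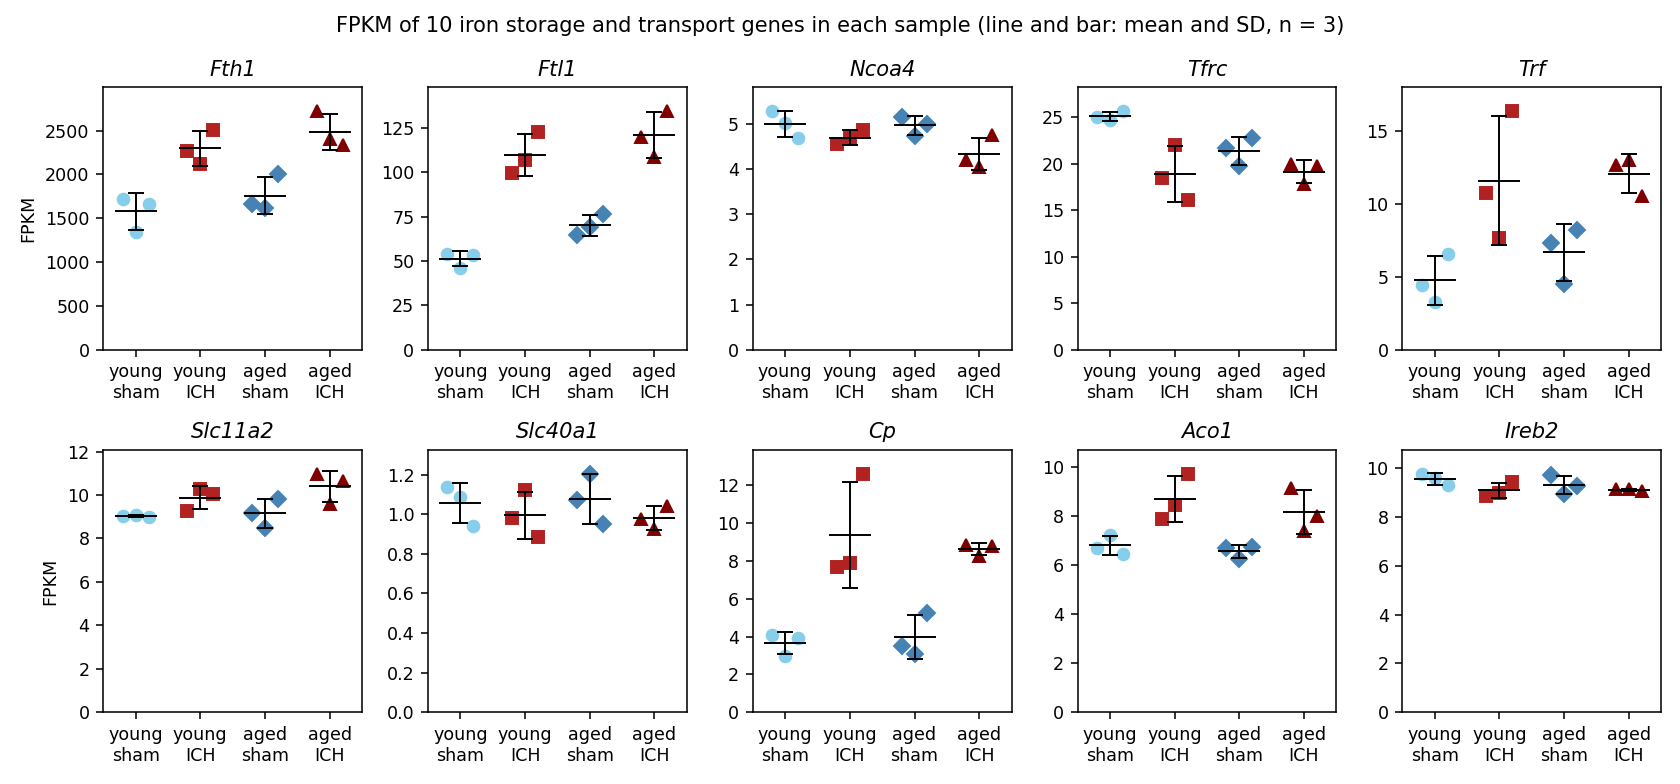
FPKM of each member (vertical axis, from 0) in each of the 12 samples, by group (horizontal axis), with the mean and SD of 3 samples as a line and bar. The Ftl1 points of young sham lie between 46.3 and 54.0 and those of young ICH between 99.5 and 123.

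Ferritin heavy chain, encoded by Fth1 (chr19:9980598-9985098, plus strand of GRCm38), carries the ferroxidase activity that lets iron enter the shell. Its FPKM was 1724, 1338 and 1666 in young sham, 2265, 2117 and 2503 in young ICH, 1660.0, 1611 and 2002 in aged sham and 2721, 2401 and 2339 in aged ICH. All 6 ICH samples were above all 6 sham samples. The group means were 1576 ± 208 in young sham, 2295 ± 195 in young ICH, 1758 ± 213 in aged sham and 2487 ± 205 in aged ICH (SD, n = 3). Fth1 rose with a log2FC of 0.45 ± 0.12 (SE; adjusted P = 0.0195) in young and 0.43 ± 0.12 (SE; adjusted P = 0.0315) in aged mice, below the 1.5-fold of the DEG criterion. The young call was lost without young sham replicate 2, at 0.35 (adjusted P = 0.0818), without young ICH replicate 3, at 0.40 (adjusted P = 0.0592), and when only those groups were fitted (0.45, adjusted P = 0.0547). The aged call was lost without aged sham replicate 1 (0.40, adjusted P = 0.110), aged sham replicate 2 (0.37, adjusted P = 0.117), aged ICH replicate 1 (0.36, adjusted P = 0.135) or aged ICH replicate 3 (0.47, adjusted P = 0.0615). Without the libraries rich in Ttr the values were 0.40 (adjusted P = 0.0757) in young and 0.35 (adjusted P = 0.244) in aged mice, and with the striatal markers as a covariate the aged value was 0.40 (adjusted P = 0.105).

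Ferritin light chain, encoded by Ftl1 (chr7:45457944-45459884, minus strand), helps the iron core form. Its FPKM was 54.0, 46.3 and 53.1 in young sham, 99.5, 107 and 123 in young ICH, 64.9, 68.9 and 76.4 in aged sham and 119.7, 108 and 134 in aged ICH. Every ICH sample was above every sham sample of either age, and every aged sham sample was above every young sham sample. Means were 51.1 ± 4.22, 109.7 ± 11.8, 70.1 ± 5.83 and 121 ± 13.035 in the same order (SD, n = 3). Ftl1 had the smallest adjusted P of the members in both ICH comparisons, with a log2FC of 1.01 ± 0.098 (SE; adjusted P = 5.5e-04) in young and 0.72 ± 0.098 (SE; adjusted P = 0.00381) in aged mice. Leaving out any 1 of the 12 libraries kept both calls, with log2FC from 0.94 to 1.07 and from 0.63 to 0.79, and both held without the libraries rich in Ttr (0.94, adjusted P = 0.00466, and 0.88, adjusted P = 0.0226).

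Ftl1 has near-identical copies in the genome. Its first annotated transcript of 968 bases matched Ftl1-ps1 at 99.56% identity over 910 bases, and Ftl2-ps, Gm15590, Ftl1-ps2 and Gm12164 at 98.73%, 99.09%, 97.81% and 96.03% over 552, 552, 549 and 554 bases. Over the 12 samples these rows held 875, 140, 97, 13 and 4 counts. The sources used here do not give how reads that fit several places were counted, so the level of Ftl1 is uncertain. With the copies added, its log2FC was 1.01 (adjusted P = 5.8e-04) in young and 0.72 (adjusted P = 0.00381) in aged mice. No other gene matched Fth1 at 95% identity over 250 bases, among annotated transcripts only; the rest of the genome was not searched. Of 14 rows named as ferritin copies, 9 of them of the Fthl17 family, 3 were tested (Fth-ps2, Ftl1-ps1 and Ftl2-ps), and 8 of the 9 Fthl17 rows had no count in any sample.

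Heavy and light chain were also compared with each other in each sample. The ratio of Fth1 to Ftl1 FPKM was 31.9, 28.9 and 31.4 in young sham, 22.8, 19.8 and 20.4 in young ICH, 25.6, 23.4 and 26.2 in aged sham and 22.7, 22.2 and 17.4 in aged ICH. Young sham lay above the other 3 groups and aged sham above both ICH groups, while the ICH groups overlapped. Means were 30.8 ± 1.61, 21.0 ± 1.56, 25.1 ± 1.49 and 20.8 ± 2.92 (SD, n = 3). The log2 ratio differed by -0.55 between young ICH and young sham, -0.28 between aged ICH and aged sham and -0.30 between aged sham and young sham. Each gave P = 0.1 in a two-sided exact permutation test, the smallest that 3 samples against 3 allow, so none could pass 0.05. With 1 of its 6 libraries left out, the aged ICH difference lay between -0.35 and -0.16 and the young between -0.61 and -0.51. Between aged ICH and young ICH the difference was -0.024 (exact permutation P = 0.800). The ratio itself depends on the uncertain level of Ftl1.

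Ncoa4 (chr14:32159865-32179855, plus strand) encodes the receptor that delivers ferritin to lysosomes, where its iron is released. Its FPKM was 5.29, 5.03 and 4.70 in young sham, 4.55, 4.69 and 4.87 in young ICH, 5.16, 4.74 and 5.01 in aged sham and 4.21, 4.06 and 4.75 in aged ICH. By FPKM the lowest values were those of aged ICH replicates 1 and 2, and ICH overlapped sham at both ages; by normalized count, which the test uses, the ICH samples lay below the shams of their age. The log2FC was -0.18 ± 0.074 (SE; adjusted P = 0.110) in young mice, where it did not pass, and -0.27 ± 0.074 (SE; adjusted P = 0.0359) in aged mice, where Ncoa4 fell. The aged call was lost when any 1 of 6 libraries was left out: young sham replicate 2, each of the 3 aged sham replicates, or aged ICH replicate 1 or 2, with adjusted P between 0.0521 and 0.136. It was also lost without the libraries rich in Ttr (-0.12, adjusted P = 0.508) when counts were scaled by library size alone (-0.20, adjusted P = 0.0961), with no filter on low counts (-0.27, adjusted P = 0.0678), when only those groups were fitted (-0.26, adjusted P = 0.0702) and with the striatal covariate (-0.27, adjusted P = 0.0942). The pseudogene Gm6768 matched Ncoa4 at 99.89% over 1878 of 3343 bases and held 224 to 380 counts per sample, 18.9% of the Ncoa4 total; with it added, the aged value was -0.24 (adjusted P = 0.0477).

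Among the genes of iron uptake, Tfrc (chr16:32608920-32632794, plus strand) encodes the receptor for transferrin-bound iron. Its FPKM was 25.0, 24.7 and 25.7 in young sham, 18.5, 22.1 and 16.1 in young ICH, 21.7, 19.8 and 22.7 in aged sham and 20.0, 17.8 and 19.7 in aged ICH. Young sham held the 3 highest values of all samples, and in both ages the ICH samples by normalized count were below the shams of their age; by FPKM aged ICH replicate 1 was just above the lowest aged sham, and young ICH replicate 2 overlapped aged sham. Means were 25.1 ± 0.493, 18.9 ± 3.01, 21.4 ± 1.49 and 19.2 ± 1.19 in the same order (SD, n = 3). Tfrc fell in young mice, with a log2FC of -0.50 ± 0.10 (SE; adjusted P = 0.00800), and the call held when any 1 library was left out (-0.63 to -0.39) and without the libraries rich in Ttr (-0.39, adjusted P = 0.0284). In aged mice the log2FC was -0.23 ± 0.10 (SE; adjusted P = 0.171); with the mean of the striatal markers as a covariate, an alternative added after the data were seen, it was -0.40 (adjusted P = 0.0301). Of 10 neuron markers, 3 fell in young ICH (Syt1, Tubb3 and Map2), and in aged ICH 0 passed in edgeR, with 1 at an unadjusted P under 0.05 and 1 in DESeq2. Their median log2FC was -0.25 in young and -0.23 in aged ICH, with 1 and 0 of 10 above 0. By normalized count, 5 did not overlap between ICH and sham in young and 7 in aged mice, beside 35.0% and 35.1% of all genes. The summed FPKM of these 10 was 1277, 1419 and 1464 in young sham, 1284, 1221 and 1001 in young ICH, 1329, 1248 and 1260.5 in aged sham and 1141, 1083 and 1189.6 in aged ICH, with Snap25 the most abundant and none at 0, and their part in the Tfrc result was not tested.

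Trf (chr9:103204001-103230444, minus strand) encodes transferrin, which in the brain is made mainly by oligodendrocytes and choroid plexus epithelium. Its FPKM was 4.46, 3.25 and 6.55 in young sham, 10.8, 7.67 and 16.3 in young ICH, 7.29, 4.49 and 8.21 in aged sham and 12.7, 12.998 and 10.5 in aged ICH. Young ICH replicate 3 was highest of all, and at each age the 3 ICH samples were above the 3 shams, while young ICH overlapped aged sham. The spread within groups was wide, with 4.75 ± 1.67 in young sham, 11.6 ± 4.40 in young ICH, 6.66 ± 1.94 in aged sham and 12.1 ± 1.35 in aged ICH (SD, n = 3). Trf rose in young mice, with a log2FC of 1.20 ± 0.30 (SE; adjusted P = 0.0181), and had the same direction in aged mice without passing, at 0.79 ± 0.30 (SE; adjusted P = 0.102). The young call was lost without young sham replicate 1 (1.15, adjusted P = 0.0543), young sham replicate 2 (0.99, adjusted P = 0.0776) or young ICH replicate 3 (0.88, adjusted P = 0.0698). In aged mice DESeq2 gave 0.78 (adjusted P = 0.0381) and a fit of only those groups 0.80 (adjusted P = 0.0482).

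The 3 libraries rich in Ttr were also the 3 with the most Trf. Without them the Trf log2FC was 0.88 (adjusted P = 0.0994) in young and 0.60 (adjusted P = 0.407) in aged mice, so neither passed. Of the 8 choroid plexus markers 0 passed in edgeR in young ICH, with 0 at an unadjusted P under 0.05 and 0 in DESeq2, and 0 in aged ICH, with 3 at an unadjusted P under 0.05 and 1 in DESeq2; their median log2FC was 1.86 in young and 2.69 in aged mice. The sign turned without the libraries rich in Ttr, with medians of -2.17 and -1.004, so that alternative does not make choroid plexus markers equal between ICH and sham. Markers of oligodendrocytes summed to 1419, 834 and 1152 in young sham, 1247, 1011 and 1413 in young ICH, 918, 1157 and 1177 in aged sham and 881, 898 and 777 in aged ICH FPKM, with Mbp the most abundant and none of the 10 at 0. In young ICH 0 of 10 passed in edgeR, with 1 at an unadjusted P under 0.05 and 1 in DESeq2, and in aged ICH 4 fell, including Mog, Cnp and Ugt8a. The part of either cell type in the Trf values was not tested. Gm20425, a gene model that spans Trf on the same strand, matched it at 100% over 1517 of 2571 bases and held 4 counts in all. Reads that fall on both may have been discarded, which would lower the counts of Trf in every sample; this was not tested.

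**Figure D2:**
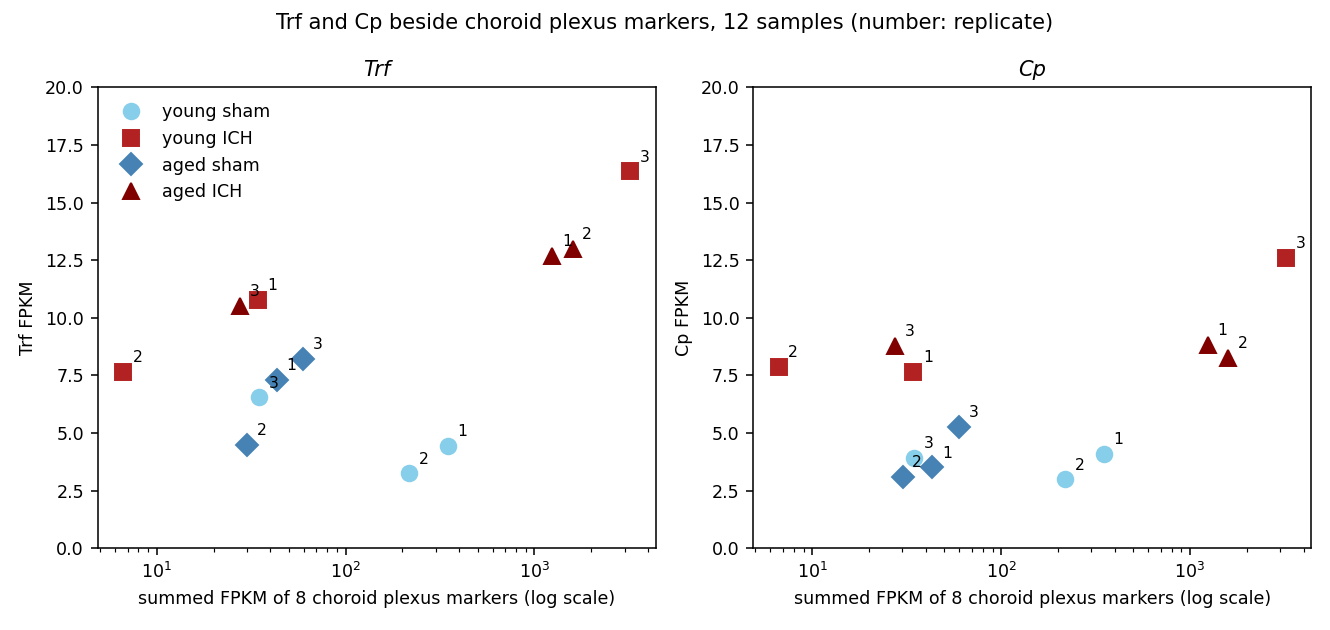
FPKM of Trf (left) and Cp (right) against the summed FPKM of 8 choroid plexus markers on a log scale, 1 point for each of the 12 samples, with the replicate number beside it. Young ICH replicate 3, at 3212 summed FPKM, has the highest Trf and the highest Cp.

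Slc11a2 (chr15:100387898-100425072, minus strand) encodes DMT1, which moves ferrous iron out of endosomes and across the cell surface. It ranged from 8.50 to 10.980 FPKM, ICH and sham overlapped at both ages by normalized count (by FPKM the young ICH samples were above the young shams), and it did not pass, with a log2FC of 0.041 ± 0.070 (SE; adjusted P = 0.725) in young and 0.11 ± 0.070 (SE; adjusted P = 0.313) in aged mice. The 95% interval of the young value ran from -0.11 to 0.19. Leaving out 1 library moved it between 0.0065 and 0.081 in young and between 0.064 and 0.17 in aged mice. With the striatal markers as a covariate the young value was -0.038 (adjusted P = 0.720).

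Of the genes of iron export, Cp (chr3:19957054-20009145, plus strand) encodes ceruloplasmin, a copper ferroxidase that oxidises iron as it leaves the cell and that astrocytes anchor at their surface. Its FPKM was 4.09, 2.98 and 3.93 in young sham, 7.66, 7.87 and 12.6 in young ICH, 3.51, 3.10 and 5.27 in aged sham and 8.81, 8.28 and 8.78 in aged ICH. All 6 ICH samples were above all 6 sham samples, and young ICH replicate 3 was highest. Means were 3.67 ± 0.597, 9.38 ± 2.79, 3.96 ± 1.15 and 8.62 ± 0.303 in the same order (SD, n = 3). Cp rose with a log2FC of 1.26 ± 0.21 (SE; adjusted P = 0.00337) in young and 1.05 ± 0.21 (SE; adjusted P = 0.0107) in aged mice, and both calls held when any 1 library was left out, with log2FC from 1.01 to 1.38 and from 0.91 to 1.30. Without the libraries rich in Ttr, the young value was 1.004 (adjusted P = 0.0194) and the aged value, from 1 ICH sample, 1.09 (adjusted P = 0.0561). Hps3, on the opposite strand, overlaps the gene model of Cp and held 9671 counts over the 12 samples; the sources used here do not say whether counting used strand, so reads of the overlap cannot be assigned with certainty. Astrocyte markers summed to 775, 766 and 784 in young sham, 1071, 1069.7 and 1196 in young ICH, 858, 773 and 932 in aged sham and 1150.3, 1074 and 1086 in aged ICH FPKM, with Gfap the most abundant and none of 10 at 0. In young ICH 5 of 10 rose and in aged ICH 3 rose and 1 fell, and their part in the Cp result was not tested.

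Slc40a1 (chr1:45908068-45926523, minus strand) encodes ferroportin, the known exporter of iron from mammalian cells. Its FPKM was 1.14, 1.09 and 0.942 in young sham, 0.982, 1.12 and 0.884 in young ICH, 1.07, 1.20 and 0.951 in aged sham and 0.978, 0.923 and 1.04 in aged ICH. ICH and sham overlapped at both ages. The log2FC was -0.17 ± 0.13 (SE; adjusted P = 0.391) in young and -0.20 ± 0.13 (SE; adjusted P = 0.339) in aged mice, and neither passed. The 95% interval ran from -0.46 to 0.11 in young and from -0.49 to 0.084 in aged mice. Leaving out 1 library moved the values between -0.27 and -0.084 and between -0.29 and -0.11, and without the libraries rich in Ttr they were -0.085 (adjusted P = 0.751) and -0.10 (adjusted P = 0.796).

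**Figure D3:**
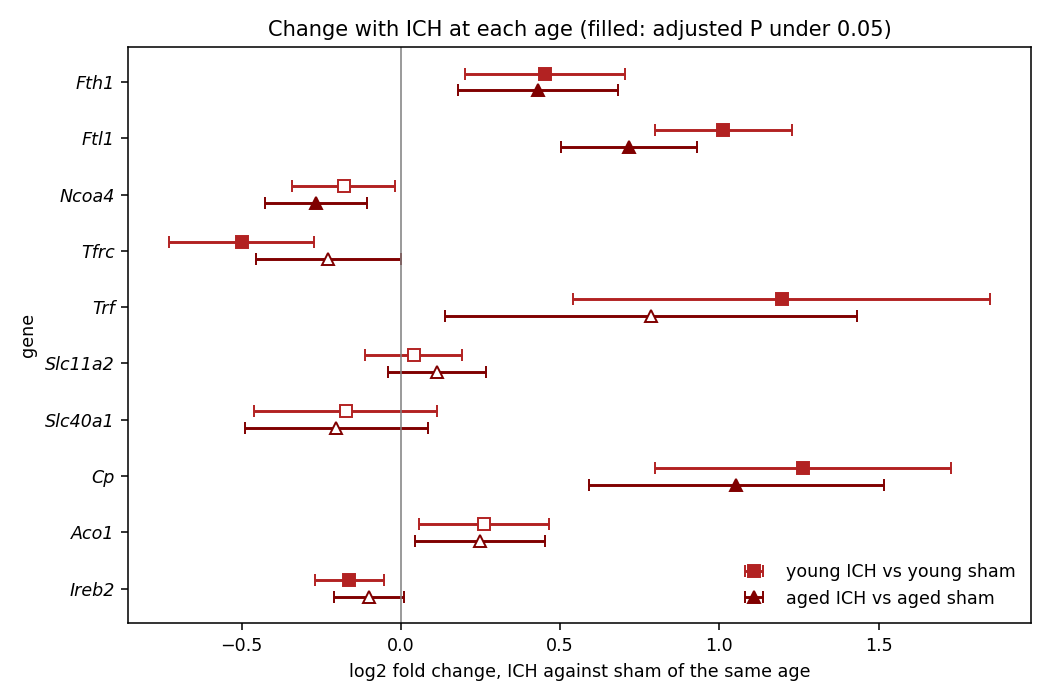
log2FC of each member with ICH against sham of the same age (horizontal axis), in young (squares) and aged mice (triangles), with 95% intervals; filled symbols have an adjusted P under 0.05. Cp has the largest value of the 10 at each age, 1.26 and 1.05.

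The regulators moved little. Aco1 (chr4:40143081-40198338, plus strand) encodes iron regulatory protein 1, which is a cytosolic aconitase when it holds an iron-sulfur cluster and binds IREs when it does not. Its FPKM was 6.73, 7.26 and 6.48 in young sham, 7.89, 8.48 and 9.74 in young ICH, 6.69, 6.28 and 6.73 in aged sham and 9.16, 7.40 and 8.00 in aged ICH. At each age the 3 ICH samples were above the 3 shams, but the log2FC of 0.26 ± 0.093 (SE; adjusted P = 0.0714) in young and 0.25 ± 0.093 (SE; adjusted P = 0.103) in aged mice did not pass. Scaling by library size alone gave 0.35 (adjusted P = 0.0242) and 0.32 (adjusted P = 0.0478), and leaving out young ICH replicate 1 gave 0.32 (adjusted P = 0.0496) in young mice. The aged value lay between 0.16 and 0.32 when 1 library was left out.

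Ireb2 (chr9:54863789-54912530, plus strand) encodes iron regulatory protein 2, which is degraded when iron is plentiful. Its FPKM stayed between 8.86 and 9.77 in all 12 samples. By normalized count the ICH samples were below the shams of their age in both ages. The log2FC was -0.16 ± 0.050 (SE; adjusted P = 0.0427) in young and -0.099 ± 0.050 (SE; adjusted P = 0.214) in aged mice. The young call was lost when any 1 of 11 of the 12 libraries was left out, with adjusted P between 0.0508 and 0.124, and held only without aged sham replicate 1 (0.0434). It was also lost when counts were scaled by library size alone (-0.072, adjusted P = 0.322), with no filter on low counts (-0.16, adjusted P = 0.180), when only those groups were fitted (-0.16, adjusted P = 0.119), without the libraries rich in Ttr (-0.18, adjusted P = 0.105) and with the striatal covariate (-0.16, adjusted P = 0.0791).

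Some members share a sequence feature that the choice by name did not use. The transcripts of GENCODE vM21 were searched for the core of an IRE: an unpaired C, 5 bases, the loop CAGTGN with a last base other than G, and 5 bases that pair with the first 5, on the transcript strand. Of 21866 protein-coding genes, 222 (1.02%) held a match, and 4 of the 10 members did: Fth1, Ftl1 and Slc40a1 in the 5′ UTR and Tfrc at 4 places in the 3′ UTR. A match is a description of the sequence and not a measured binding site, and looser forms of the element were not searched. The 30 bases around each match are printed 5′ to 3′ on the transcript strand, with the loop in capitals, because they are the stretches of storage, export and uptake genes that the search found. Their likeness in the C, the loop and the pairing was set by the search. In GRCm38 they lie at chr19:9982732-9982761 (plus strand) in Fth1, chr7:45459778-45459807 (minus) in Ftl1, chr1:45925464-45925493 (minus) in Slc40a1 and, on the plus strand in Tfrc, chr16:32631219-32631248, chr16:32631598-32631627, chr16:32631663-32631692 and chr16:32631710-32631739.
Fth1, 5′ UTR: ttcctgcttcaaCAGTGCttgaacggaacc
Ftl1, 5′ UTR: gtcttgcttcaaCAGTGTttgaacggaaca
Slc40a1, 5′ UTR: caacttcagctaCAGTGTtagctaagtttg
Tfrc, 3′ UTR, element a: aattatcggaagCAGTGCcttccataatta
Tfrc, 3′ UTR, element b: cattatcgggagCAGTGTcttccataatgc
Tfrc, 3′ UTR, element c: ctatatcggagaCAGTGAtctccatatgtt
Tfrc, 3′ UTR, element d: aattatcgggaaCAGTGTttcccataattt
Of these 4 genes, Fth1 and Ftl1 rose at both ages, Tfrc fell in young mice and Slc40a1 did not pass.

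For the comparisons of age, 0 of 10 members passed between aged sham and young sham in edgeR, against 0.102% of all genes. Ftl1 and Tfrc, 2 of the 10, had an unadjusted P under 0.05 (12.3% of all genes did), and 1 member, Ftl1, passed in DESeq2, which passed 280 of all genes in this comparison where edgeR passed 22. In edgeR the log2FC was 0.41 ± 0.098 (SE; adjusted P = 0.181) for Ftl1 and -0.27 ± 0.10 (SE; adjusted P = 0.324) for Tfrc, and in DESeq2 it was 0.40 (adjusted P = 0.0246) for Ftl1. These were also the 2 members whose aged and young sham samples did not overlap by normalized count, Ftl1 higher and Tfrc lower in aged mice; 21.0% of all genes tested did not overlap. The other 8 had a log2FC between -0.097 (Aco1) and 0.45 (Trf). Markers of blood cells were compared between the shams as well. Of 8 neutrophil markers 0 passed in edgeR, with 7 at an unadjusted P under 0.05 and 2 in DESeq2. Their median log2FC was 2.01, and 6 did not overlap, all higher in aged sham. Of 5 red blood cell markers 0 passed in edgeR, with 3 at an unadjusted P under 0.05 and 0 in DESeq2, a median of 1.58 and 5 that did not overlap, all higher in aged sham. Of 10 markers of monocytes and macrophages 0 passed in edgeR, with 2 at an unadjusted P under 0.05 and 1 in DESeq2. Their median log2FC was 0.18, 8 were above 0, and 1 did not overlap. The part of these cell types in the Ftl1 values was not tested. Among 10 neuron markers 0 passed in edgeR, with 3 at an unadjusted P under 0.05 and 2 in DESeq2. The median log2FC of these 10 was -0.13, 1 was above 0, and 4 did not overlap between the shams. The part of neurons in the Tfrc values of the shams was not tested.

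Between aged ICH and young ICH, 0 of 10 passed in edgeR, against 0.0558% of all genes, with 0 at an unadjusted P under 0.05 (9.54% of all genes) and 0 in DESeq2. No member's groups were free of overlap, beside 13.3% of all genes, and the log2FC lay between -0.14 (Cp) and 0.12 (Ftl1). The interaction, which subtracts the young from the aged log2FC of ICH, also had 0 of 10 members in edgeR, 0 at an unadjusted P under 0.05 and 0 in DESeq2; of all 21495 genes, 0 passed in edgeR, 606 (2.82%) had an unadjusted P under 0.05 and 1 passed in DESeq2. Its smallest P was that of Ftl1, with a difference in log2FC of -0.29 ± 0.14 (SE; adjusted P = 1), followed by Tfrc with 0.27 ± 0.15 (SE; adjusted P = 1). So the calls made in 1 age and not the other, for Tfrc, Trf, Ireb2 and Ncoa4, are not shown to differ between ages. The ICH comparisons of young and aged mice share no samples, while each comparison of ages shares its samples with them.

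Other genes of iron handling, from lists chosen by function, moved in both directions. Of 53 such genes, 48 were tested, with a median log2FC of 0.069 in young and 0.020 in aged ICH. In young ICH 8 rose and 5 fell, where 9.89% of all genes were higher and 9.23% lower. In aged ICH 9 rose and 6 fell, where 7.00% of all genes were higher and 6.15% lower. Not all of these calls held: 6 of 13 in young and 3 of 15 in aged mice held whichever 1 library was left out. Of the 48, 7 passed in young and 2 in aged mice without the libraries rich in Ttr. The uptake list held most of those that rose, with 6 of 13 at each age and none falling, where 9.89% of all genes were higher in young and 7.00% in aged ICH: Lcn2 (lipocalin 2, which binds iron-carrying siderophores), Slc39a14 and Slc39a8 (zinc and iron transporters of the ZIP family), Steap3 and Steap4 (ferrireductases) and Scara5 (a receptor for ferritin). Its median log2FC was 0.71 in young and 0.49 in aged mice. This list leaves out the members Tfrc, Trf and Slc11a2. In young ICH Tfrc fell, Trf rose and Slc11a2 did not pass. Lcn2 stood at 7.05, 7.04 and 10.3 in young sham, 47.8, 58.5 and 117 in young ICH, 6.56, 2.41 and 15.3 in aged sham and 67.7, 64.6 and 54.8 in aged ICH FPKM. All 6 ICH samples were above all 6 shams, with a log2FC of 3.10 (adjusted P = 0.00335) in young and 2.88 (adjusted P = 0.00753) in aged mice. Slc39a14 rose by 0.91 (adjusted P = 0.00169) and 0.90 (adjusted P = 0.00389), Scara5 by 2.08 (adjusted P = 0.0139) and 1.72 (adjusted P = 0.0465), and Steap4 by 2.91 (adjusted P = 0.00950) and 2.09 (adjusted P = 0.0471) on the log2 scale. Of the 13, 4 passed in young and 1 in aged mice without the libraries rich in Ttr. The aged Steap4 call held in 2 of 12 fits that left out 1 library, with values from 1.60 to 3.40. The aged call held in 4 of 12 such fits for Scara5, 4 of 12 for Slc39a8 and 3 of 12 for Steap3. The young call held in 10 of 12 for Scara5 and 8 of 12 for Slc39a8. With the libraries rich in Ttr left out, Slc39a8 had 0.47 in young and 0.50 in aged mice, and Steap3 0.59 and 0.40. Without the libraries rich in Ttr Scara5 had 1.28 (adjusted P = 0.0477) in young and 1.13 (adjusted P = 0.195) in aged mice, Steap4 2.44 (adjusted P = 0.0554) and 2.07 (adjusted P = 0.198), and Lcn2 2.63 (adjusted P = 0.0199) and 2.70 (adjusted P = 0.0574).

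On the list of iron export and the hepcidin axis, 11 genes of which 8 were tested, 1 rose and 2 fell at each age. Of all genes 9.89% were higher and 9.23% lower in young ICH, and 7.00% and 6.15% in aged ICH. Hfe rose, at 0.77 (adjusted P = 0.0368) in young and 0.76 (adjusted P = 0.0480) in aged mice. App fell, at -0.38 (adjusted P = 0.00488) and -0.36 (adjusted P = 0.0102), as did Neo1, at -0.22 (adjusted P = 0.0170) and -0.22 (adjusted P = 0.0219). With the libraries rich in Ttr left out, Hfe had 0.46 (adjusted P = 0.0872) and 0.39 (adjusted P = 0.287), and 1 of 8 passed in young (App) and 0 in aged mice. Hamp and Hephl1 had too few counts to test, and Hjv was not in the table. Of the cytosolic genes (12, with 11 tested), which include the iron chaperones and the ubiquitin ligase subunit Fbxl5, Herc2 fell in young mice (-0.63, adjusted P = 0.00618) and Bola2 rose in aged mice (0.37, adjusted P = 0.0252); no other gene of this list passed in edgeR, while DESeq2 passed 1 in young and 2 in aged mice. Of 12 mitochondrial genes, 11 tested, those that fell included Alas1 at both ages (-0.21, adjusted P = 0.0361, and -0.32, adjusted P = 0.00961). Among 5 other transcripts known to hold an IRE, Cdc14a rose (0.71, adjusted P = 0.0144, and 0.59, adjusted P = 0.0395) and Cdc42bpa fell (-0.30, adjusted P = 0.0132, and -0.30, adjusted P = 0.0193) at both ages. Of the calls named in this paragraph, those of App and Herc2 in young and Alas1 in aged mice held whichever 1 library was left out, and the others did not; the Hfe calls held in 8 of 12 fits in young and 3 of 12 in aged mice. When the libraries rich in Ttr were left out, those of App, Herc2 and Cdc42bpa in young mice passed, and no other call named here did: Neo1 had -0.20 (adjusted P = 0.0886) in young and -0.22 (adjusted P = 0.191) in aged mice, Alas1 -0.15 (adjusted P = 0.141) and -0.35 (adjusted P = 0.0569), and Cdc14a 0.55 (adjusted P = 0.0873) and 0.62 (adjusted P = 0.155). In aged mice App then had -0.32 (adjusted P = 0.104), Bola2 0.30 (adjusted P = 0.278) and Cdc42bpa -0.35 (adjusted P = 0.116). By list, edgeR then passed 1 cytosolic gene, 0 mitochondrial and 1 of the 5 transcripts with an IRE in young mice, and 0, 0 and 1 (Alas2, higher, which had not passed with all libraries) in aged mice. Of the 48 genes of these lists, 0 passed in edgeR between aged sham and young sham, with 8 at an unadjusted P under 0.05 and 0 in DESeq2. Between aged ICH and young ICH 0 passed in edgeR, with 4 at an unadjusted P under 0.05 and 1 in DESeq2, and in the interaction 0, with 0 at an unadjusted P under 0.05 and 0 in DESeq2.

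Genes of heme handling, whose products carry heme or hemoglobin, open the heme ring or reduce biliverdin, were set beside the members. Of 11 on this list, 3 rose in young ICH (Hmox1, Hpx and Hp) and 2 in aged ICH (Hmox1 and Hpx), and none fell. The shares of all genes that were higher were 9.89% and 7.00%. Hmox1, which encodes the heme oxygenase that opens the heme ring and releases its iron, stood at 4.01, 8.81 and 8.20 in young sham, 84.6, 99.3 and 129.7 in young ICH, 22.1, 3.65 and 48.4 in aged sham and 156, 94.4 and 161 in aged ICH FPKM. All ICH samples were above all shams, and the aged shams were far apart, with replicate 2 lowest. Its log2FC was 3.81 (adjusted P = 0.00403) in young and 2.41 (adjusted P = 0.0285) in aged mice. Hpx, encoding the heme carrier hemopexin, had 1.76 (adjusted P = 0.00437) and 1.78 (adjusted P = 0.00671), and Hp, encoding haptoglobin, 1.94 (adjusted P = 0.0290) and 0.83 (adjusted P = 0.297). Both Hpx calls and the young Hmox1 call held whichever 1 library was left out. The aged Hmox1 call held in 9 of 12 such fits and the young Hp call in 8 of 12, and the aged Hp value ran from 0.46 to 1.66. Leaving out the libraries rich in Ttr, 2 passed in young (Hmox1 and Hpx) and 1 in aged mice (Hpx); Hmox1 had 2.65 (adjusted P = 0.122) in aged mice.

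Markers of immune and blood cells were set beside the ferritin results. As a background, 9.89% of all genes were higher and 9.23% lower in young ICH, and 7.00% and 6.15% in aged ICH. Of 10 markers of monocytes and macrophages, 7 rose in young and 5 in aged ICH; their summed FPKM was 14.3, 13.9 and 14.8 in young sham, 56.5, 48.7 and 80.4 in young ICH, 25.2, 18.2 and 50.1 in aged sham and 84.2, 71.8 and 91.9 in aged ICH, with Lyz2 the most abundant and none at 0. Of 10 neutrophil markers, 8 were tested, and 7 rose in young and 6 in aged ICH; the sum was 3.80, 5.46 and 4.22 in young sham, 11.7, 28.4 and 24.9 in young ICH, 7.23, 9.06 and 18.5 in aged sham and 50.4, 48.0 and 31.6 in aged ICH, with S100a9 the most abundant, and Ly6g had no count in 4 samples, Retnlg in 2 and Camp in 1. Each ICH sample was above the young shams on both lists, but young ICH overlapped aged sham on both, through aged sham replicate 3, the highest sham. Homeostatic microglia markers summed to 143, 127 and 120.2 in young sham, 149, 130.0 and 163 in young ICH, 142, 133 and 136 in aged sham and 160.4, 147 and 136 in aged ICH, with none at 0; P2ry12 and Siglech fell at both ages, and Fcrls rose in aged ICH. Without the libraries rich in Ttr, 4 macrophage and 7 neutrophil markers passed as higher and 1 microglia marker as lower in young ICH and 0, 0 and 0 in aged ICH in edgeR. The aged ICH group then held 1 sample. In that fit the aged median log2FC of macrophage markers was 0.99, beside 0.92 with all libraries. For neutrophil markers it was 1.61 beside 1.82, and for microglia markers -0.069 beside 0.0014. Whichever 1 library was left out, 4 of 7 macrophage, 7 of 7 neutrophil and 1 of 2 microglia calls held in young ICH. In aged ICH 0 of 5, 1 of 6 and 2 of 3 did. The part of these cells in the ferritin results was not tested.

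Of 9 red blood cell markers 8 were in the table and 5 were tested. Their summed FPKM was 6.18, 26.3 and 8.29 in young sham, 36.5, 154 and 68.0 in young ICH, 48.1, 34.0 and 46.3 in aged sham and 39.3, 31.2 and 88.0 in aged ICH, with Hbb-bs the most abundant; the markers with no count in some samples included Slc4a1, in 3. Young ICH was above young sham, and aged ICH overlapped aged sham; 3 of 5 rose in young ICH (Hba-a1, Hba-a2 and Hbb-bs), and in aged ICH 0 passed in edgeR, with 1 at an unadjusted P under 0.05 and 0 in DESeq2. Endothelial markers, of cells that carry much of the transferrin receptor of brain, summed to 140.5, 109 and 127 in young sham, 204, 178 and 200.3 in young ICH, 117, 135 and 136 in aged sham and 188, 165 and 159 in aged ICH, with Slc2a1 the most abundant and none at 0. Of these 10, 7 rose in young ICH and 5 in aged ICH, while Tfrc fell in young ICH; their part in the Tfrc values was not tested. Of the 10 striatal neuron markers 0 passed in edgeR in young ICH, with 1 at an unadjusted P under 0.05 and 0 in DESeq2, and 0 in aged ICH, with 1 at an unadjusted P under 0.05 and 0 in DESeq2. Without the libraries rich in Ttr, the markers that passed in young ICH were 2 of red blood cells, 5 of astrocytes and 6 of endothelium, all higher, and 1 of oligodendrocytes, 1 of choroid plexus, 2 of neurons and 1 of striatal neurons, all lower. In aged ICH 1 of red blood cells passed as higher, 1 of oligodendrocytes as lower and 0 of the other 5 lists in edgeR. The aged median log2FC was then 0.28 for endothelial markers, beside 0.40 with all libraries, and 0.038 beside 0.053 for astrocyte markers. Whichever 1 library was left out, 2 of 3 red blood cell, 3 of 5 astrocyte, 4 of 7 endothelial and 2 of 3 neuron calls held in young ICH. In aged ICH 1 of 4 astrocyte, 2 of 5 endothelial and 1 of 4 oligodendrocyte calls did. With all libraries the median log2FC of the striatal markers was -0.95 in young and -1.09 in aged mice.

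The genes most like each member over the 12 samples were sought by Pearson's r of log2 CPM among 12670 genes with a mean of at least 5 CPM, as a description; the points share libraries and groups, so genes that respond to ICH resemble each other. For Fth1 they were Litaf (0.98), Card19 (0.98) and Gnai2 (0.97), for Ftl1 Lbr (0.99), Irf5 (0.98) and Col5a3 (0.98), for Cp Ifitm2 (0.98), Tagln2 (0.98) and Tgm2 (0.98) and for Trf Klk6 (0.97), Mapkapk3 (0.97) and Ddx18 (0.97). For Tfrc they were Pi4ka (0.97), Slc6a17 (0.97) and Tmem63b (0.97), and for Ireb2 Kdm5c (0.97), Cul2 (0.96) and Prpf8 (0.95). The 3 values of r were lower for Slc40a1, with Pitpnm2 (0.91), Mtmr4 (0.91) and Pcdh8 (0.89), Slc11a2, with Gm38299 (0.90), Adcy6 (0.89) and Bcl7c (0.88), Aco1, with Thbd (0.94), Tmem214 (0.93) and Nop9 (0.93), and Ncoa4, with Heatr5b (0.93), Fam206a (0.93) and Gemin8 (0.92). With group means taken out, so that only the spread within groups was compared, the nearest were Ccs (0.97), Prcp (0.97) and Asap3 (0.95) for Fth1, Tmem80 (0.95), Lbr (0.93) and Dnm2 (0.91) for Ftl1, Mapkapk3 (0.96), C1ra (0.94) and Ifi27l2a (0.94) for Trf and Galnt6 (0.97), Zfp36 (0.95) and Nfkb2 (0.94) for Cp. Lbr for Ftl1, Mapkapk3 for Trf and Thbd for Aco1 were among the 3 nearest on both scales.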

How the data were processed

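RNA-seq of 12 samples, grouped by their labels, was analysed from a table of 54833 genes. The authors aligned paired reads to GRCm38.p6 with HISAT2, counted them with featureCounts of Subread, and deposited raw counts, 1 count per gene in each sample. The deposited FPKM values were made by the authors from these counts, per transcript length and mapped fragments. Strand use and the treatment of reads with several alignments are not given in the sources used here.

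Counts were tested with edgeR 4.0.16 (R 4.3.3; quasi-likelihood test, TMM normalization), all 12 samples in one fit of 4 groups, for the 21495 genes kept by filterByExpr (minimum count 10). P-values were adjusted over all of these. Normalized counts are CPM on TMM-scaled library sizes, with a prior count of 2 for log2 CPM. The SE of a log2FC was taken from its size and the root of F, and 95% intervals use the t distribution with the degrees of freedom of that test. Alternatives were DESeq2 1.42.0, RLE size factors, library size alone, no filter, a minimum count of 50, only the groups compared, the replicate number as a block, and leaving out each library. Positions and transcripts came from GENCODE vM21 (GRCm38); copies were found with blastn at 95% identity over 250 bases.

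The members and lists were chosen with earlier results of these data known. The text names all 10 members; from each list, up to 5 genes that passed in the comparison discussed, those of smallest P, and of cell type lists the most abundant gene and markers at 0; rows named as ferritin copies; and the 3 genes most like a member. Where it names others (such as a sixth gene of a list, or genes found as copies or overlaps), they were chosen after their values were seen.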

Additional observations from a re-analysis of the deposited data

How the results depend on the processing

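The count of members that passed was 6 in young and 4 in aged ICH. In young ICH it was 3 by the DEG criterion and 3 without the 3 libraries rich in Ttr; in aged ICH it was 1 without those libraries. Leaving out each library gave 3 to 6 in young ICH (3 when young ICH replicate 3 or young sham replicate 2 was left out) and 2 to 4 in aged ICH (2 without aged sham replicate 1, aged sham replicate 2 or aged ICH replicate 1). The calls of all genes fell too, from 4110 to 2411 and 1858 in young ICH and from 2828 to 1222, 1273 and 679 in aged ICH, in the order named. DESeq2 gave 1 member for aged sham vs. young sham, where edgeR gave 0; of all genes DESeq2 passed 280 there and edgeR 22. The causes were not tested. The other alternatives stayed within 1.5 times these counts. The libraries rich in Ttr, the striatal covariate and the added copies were alternatives chosen after seeing the data.

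Scaling by library size alone moved the share of all called genes that were higher from 51.7% to 73.8% in young and from 53.2% to 73.8% in aged ICH, with the median log2FC of all genes at 0.11 and 0.072. Under it no member changed direction in either ICH comparison.

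The replicate numbers did not pair the samples: deviations from the group means of same-numbered samples correlated from -0.45 to 0.23, with 5 of 18 pairs over 0.1, against 13 of 36 for different numbers. With the number as a block, 5 members passed in young and 4 in aged ICH: Ireb2 in young (-0.16, adjusted P = 0.0700) and Ncoa4 in aged mice (-0.27, adjusted P = 0.0577) did not pass, and Trf did in aged mice (0.86, adjusted P = 0.0371). It changed no other call of the members. Of all genes 3502 and 2464 passed with the block, against 4110 and 2828 without it.

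No called member changed sign. Values near 0 that had not passed did. Scaled by library size alone, aged ICH vs. young ICH was 0.022 for Tfrc and 0.0051 for Ireb2, and aged sham vs. young sham 0.026 for Slc40a1 and 0.023 for Slc11a2; a minimum count of 50 gave 0.0042 for Tfrc in aged ICH vs. young ICH. Without the libraries rich in Ttr, aged ICH vs. young ICH was 0.15 for Cp and 0.012 for Ncoa4, and the interaction 0.087 for Cp, 0.069 for Ncoa4 and 0.041 for Aco1. With the striatal covariate Slc11a2 had -0.038 in young ICH. Leaving out each library gave, for aged ICH vs. young ICH, -0.12 to 0.13 for Tfrc, -0.18 to 0.35 for Trf, -0.13 to 0.057 for Slc40a1 and -0.26 to 0.12 for Cp; for aged sham vs. young sham, -0.11 to 0.074 for Slc40a1, -0.063 to 0.029 for Slc11a2 and -0.18 to 0.21 for Cp; for the interaction, -0.091 to 0.082 for Fth1, -0.12 to 0.076 for Slc40a1, -0.10 to 0.063 for Aco1 and -0.35 to 0.048 for Cp. The log2 ratio of Fth1 to Ftl1 differed between aged ICH and young ICH by -0.094 to 0.099, and kept its sign in the other 3 comparisons.

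Each sample is a pool of mice from 1 laboratory and 1 time, and choroid plexus and striatal markers differed widely between libraries. Slc40a1, with the fewest counts of the members, had 236 to 386 per sample. Iron and protein were not measured.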
